A study of Mus musculus with 17 samples.

Results

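A set of 10 genes that move calcium in heart muscle cells were followed in RNA sequencing data from mouse hearts. They were the rows of the deposited expression table whose symbol is Atp2a2, Pln, Sln, Ryr2, Casq2, Cacna1c, Slc8a1, Camk2d, Trdn or Jph2, and 10 of the 28640 genes of the table were taken. The hearts came from mice without a tumour (control, 5 libraries), mice bearing a graft of CT-26 cells (tumour, 6 libraries) and mice with the same graft that also swam (tumour_swim, 6 libraries). CT-26 cells come from a colon carcinoma of the mouse. Swimming was studied in tumour-bearing mice alone, and the labels used here give no strain, sex or age. The labels do not say that the libraries of a group are separate animals, so p-values measure the spread between these libraries, which may be technical.

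At each beat, calcium enters a heart muscle cell through the L-type channel in the surface membrane and opens the ryanodine receptor, which lets calcium out of the sarcoplasmic reticulum, the internal store. The cell relaxes when the SERCA pump returns calcium to the store and the sodium-calcium exchanger carries the rest out. Phospholamban and sarcolipin restrain the pump. Calsequestrin sits inside the store and triadin in its membrane, beside the release channel. Junctophilin holds store and surface membrane together, and CaM kinase II phosphorylates several of these proteins.

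Expression is given in FPKM, reads per kilobase of exon, scaled to the library's assigned reads. The length is that of all annotated exons of a gene merged, whichever of its transcripts the heart holds. Levels of different genes, and the size of ratios between genes, are therefore only roughly comparable. Depth was 13.41 to 19.8 M assigned reads per library, with a median of 15.73 M. The summed level of 12 heart muscle markers, among them Myh6, Tnnt2 and Tnni3, lay between 15387 and 29331 FPKM in every library. Of the atrial markers, the light chain Myl7 had group means of 0.552, 0.282 and 0.461 FPKM in control, tumour and tumour_swim. Nppa was higher, at 13.4, 12.3 and 24.7 FPKM, as was Dkk3, at 1.48, 6.52 and 5.14. Of the skeletal muscle markers, the fast myosin Myh1 was at 0 in every control library and at most 0.0163 FPKM elsewhere. Eno3 of that list had means of 871, 735 and 785 FPKM. The remaining markers of the 2 lists had group means of at most 0.891 FPKM (Mylpf in control). Fewer heart muscle cells in a sample and less RNA per cell cannot be told apart in these bulk libraries.

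Of the 17 libraries 3 stood apart, namely control 1, control 4 and tumour_swim 1. Mitochondrial genes took 26.2%, 30.8% and 46.3% of their reads, and 12605, 11852 and 10773 genes reached 0.5 FPKM in them. The mitochondrial share of control 1 was no higher than that of control 3 (26.2%), tumour 1 (29.7%) or tumour 2 (27.0%). Across genes, their deviations from the other libraries of their group ran against exon length, with Spearman correlations of -0.60, -0.62 and -0.57. Long transcripts were thus under-represented beside the rest of the group. Control 2 and control 3 deviated as far the other way, at 0.60 and 0.62, and control 5 was at -0.16. Leaving out control 1 and control 4 therefore keeps the controls richest in long transcripts. In tumour_swim 1, Ryr2, which has 28790 bases of exon, was at 0.199 times the mean of the other libraries of its group, Cacna1c (21191 bases) at 0.142 times and Pln (2759 bases) at 0.775 times. In control 4 the same 3 genes were at 0.213, 0.189 and 0.729 times the mean of the other controls. The members' results in tumour against control are therefore given with and without these 3 libraries.

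**Figure D1:**
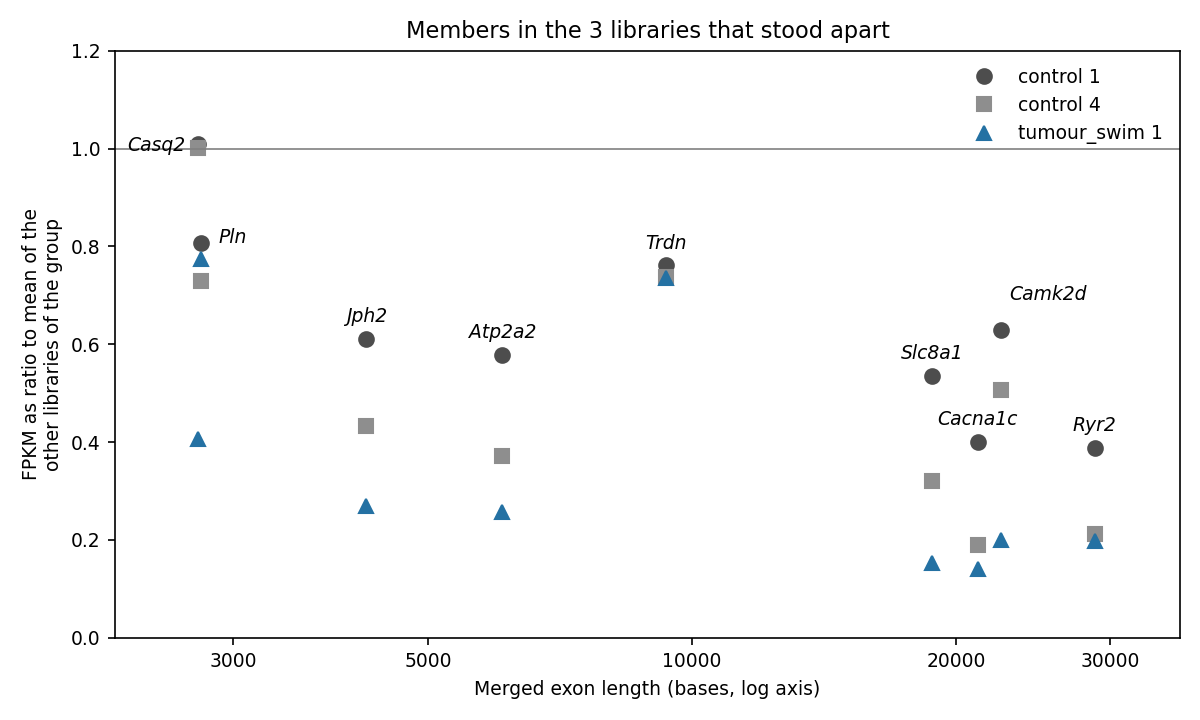
Level of 9 calcium handling genes in the 3 libraries that stood apart, as a ratio to the mean of the other libraries of the same group (vertical axis), against merged exon length in bases (horizontal log axis). Casq2 was at 1.01 and 1.00 times the rest in control 1 and control 4, while the long transcripts Ryr2 and Cacna1c were at 0.389 and 0.400 times in control 1 and lower in the other 2 libraries.

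In tumour against control, limma called Casq2 lower at an adjusted p under 0.05 with and without the 3 libraries that stood apart. Jph2 and Camk2d were not called with all libraries and were called lower without those 3. Their promoters are shown because the comparison with control turns on these 3 genes. Each is the stretch of 250 bases before a transcript start of RefSeq (GRCm38.p6), read 5′ to 3′ on the gene's strand. For Camk2d that start lies downstream of the GENCODE gene start given below, so its window is inside the GENCODE gene. Capitals mark every match to a motif searched. Casq2 is on the plus strand at chr3:102086165-102086414, Jph2 on the minus strand at chr2:163397994-163398243 and Camk2d on the plus strand at chr3:126596701-126596950.
Casq2: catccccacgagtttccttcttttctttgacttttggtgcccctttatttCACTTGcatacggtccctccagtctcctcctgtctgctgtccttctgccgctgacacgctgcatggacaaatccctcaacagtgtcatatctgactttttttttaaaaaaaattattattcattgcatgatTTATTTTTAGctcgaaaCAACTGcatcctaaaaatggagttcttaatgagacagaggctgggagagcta
Jph2: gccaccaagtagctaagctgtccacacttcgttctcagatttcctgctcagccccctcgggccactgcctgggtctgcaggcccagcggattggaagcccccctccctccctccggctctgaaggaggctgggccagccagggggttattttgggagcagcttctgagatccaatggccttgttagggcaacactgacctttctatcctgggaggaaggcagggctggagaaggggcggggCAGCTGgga
Camk2d: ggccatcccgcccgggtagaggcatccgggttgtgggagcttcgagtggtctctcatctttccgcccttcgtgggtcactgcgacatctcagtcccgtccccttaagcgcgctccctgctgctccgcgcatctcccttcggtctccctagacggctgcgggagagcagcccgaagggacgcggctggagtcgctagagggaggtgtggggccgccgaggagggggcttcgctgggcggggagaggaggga

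The motifs searched, on both strands, were the E-box CANNTG, the M-CAT element CATTCC, the TATA box TATAAA, the GATA motif AGATAA, the CArG box and the MEF2 motif. The Casq2 promoter held the MEF2 motif at bases -69 to -60 and E-boxes at -200 to -195 and -52 to -47. The MEF2 motif was present in 1.69% of 32851 RefSeq promoters and, of the 7 calcium handling genes with a promoter entry, in Casq2 alone. Jph2 held an E-box at -9 to -4 and Camk2d held none of the 6 motifs in this window. An E-box is common, in 66.22% of promoters, and was present in 6 of the 7 genes. The bases of the 3 promoters were 41.6%, 62.0% and 68.4% G or C in Casq2, Jph2 and Camk2d. These matches describe letters only. Atp2a2, Sln and Trdn had no entry.

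The 10 genes spanned a wide range of levels. In control hearts the order was Atp2a2 at 1501 ± 604 FPKM (SD, n = 5), Pln at 605 ± 103, Casq2 at 299 ± 17.6, Jph2 at 137 ± 49.8, Trdn at 39.8 ± 7.21, Ryr2 at 34.8 ± 25.3, Slc8a1 at 17.6 ± 7.97, Cacna1c at 9.996 ± 6.46, Camk2d at 7.85 ± 2.35 and Sln at 0.0563. Among neighbours in that order, the control ranges of Pln and Casq2, Casq2 and Jph2, Jph2 and Trdn, and Camk2d and Sln did not overlap, and the other neighbours overlapped. In tumour hearts Ryr2 ranked above Trdn, and only Ryr2 with Trdn and Slc8a1 with Cacna1c overlapped. Atp2a2 was read at 39146 to 214234 reads per library and Camk2d, the thinnest of the 9 expressed genes, at 443 to 3634. Counting error is therefore small beside the spread between libraries for these 9 genes.

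**Figure D2:**
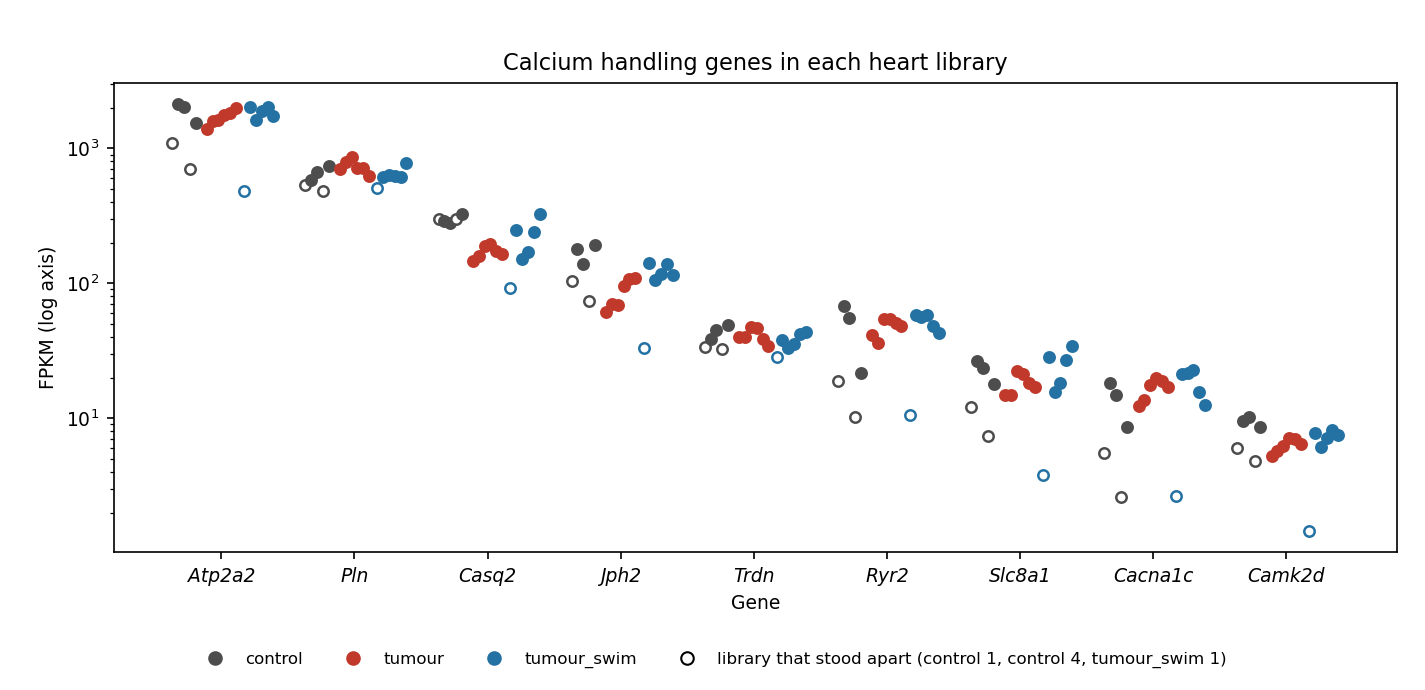
FPKM of 9 calcium handling genes (vertical log axis) in each of 17 libraries, by gene and group, with open circles for control 1, control 4 and tumour_swim 1; Sln is left out because it is 0 in 10 libraries. Casq2 in the 6 tumour libraries lies between 146 and 197 FPKM, below all 5 controls, while tumour_swim 1 is the lowest library of its group for every gene shown.

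The first question was whether the calcium genes differ between hearts of tumour-bearing and tumour-free mice. Casq2 fell by 42.6% in mean level, from 299 to 172 FPKM, and was the 1 gene of the 9 tested that passed. Jph2 had means of 137 and 85.5 FPKM and Camk2d of 7.85 and 6.31 FPKM, and both passed when control 1, control 4 and tumour_swim 1 were left out. The pump Atp2a2, its inhibitor Pln, the release channel Ryr2, the calcium channel Cacna1c, the exchanger Slc8a1 and Trdn did not pass with or without those libraries. Sln was too low to be tested.

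The test was limma on log2(FPKM + 1) across 13709 genes, two-sided, with Benjamini-Hochberg adjustment over all of them. It called 1 of the 9 genes lower and none higher at an adjusted p under 0.05, where it called 3.33% of all genes lower and 5.14% higher (8.47% in either direction). The median log2 fold change of the 9 genes was 0.15, beside 0.14 over all genes. Without the 3 libraries it called 3 of the 9 lower and none higher, against 5.42% and 7.12% of 13797 genes, and their median log2 fold change was -0.16, beside 0.03.

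Among the proteins of the store, calsequestrin 2, encoded by Casq2 (ENSMUSG00000027861, GRCm38 chromosome 3, 102086415 to 102146514, plus strand), is the calcium-binding protein of the heart's store. It was read at 301, 289.6, 279, 299 and 326 FPKM in the control libraries, at 146, 160.4, 190.3, 197, 173 and 164 in the tumour libraries and at 92.7, 249.6, 152, 171, 240.3 and 327 in the tumour_swim libraries. All 6 tumour libraries were below all 5 controls, as they were in 2.82% of genes tested. The log2 fold change was -0.80 ± 0.23 (SE; limma adjusted p = 0.0413), and -0.80 ± 0.19 without the 3 libraries (adjusted p = 0.0149). The call is near its threshold: leaving out single libraries lost it in 10 of 17 cases (control 1, 4 and 5, each of the 6 tumour libraries, tumour_swim 4), with log2 fold changes of -0.84 to -0.76 and adjusted p of 0.0519 to 0.0909. It was also lost with quantile normalization, at -0.55 (adjusted p = 0.154), and with no filter on low genes, at the same fold change (adjusted p = 0.0774).

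Triadin, encoded by Trdn (ENSMUSG00000019787, chromosome 10, 33080554 to 33476709, plus strand), anchors calsequestrin to the release channel. Its levels were 33.7, 38.6, 44.7, 32.6 and 49.4 FPKM in control, 40.0, 40.3, 47.1, 46.5, 38.7 and 34.6 in tumour and 28.3, 38.3, 33.4, 35.2, 42.0 and 43.8 in tumour_swim. The 3 groups overlapped. The log2 fold change of tumour against control was 0.06 ± 0.15 (limma adjusted p = 0.808), with a 95% interval of -0.25 to 0.37, and -0.10 without the 3 libraries (adjusted p = 0.633). The ratio of Casq2 to Trdn within a library, picked after the values were seen and so not tested, was 7.69 ± 1.33 in control (SD, n = 5), 4.18 ± 0.387 in tumour (n = 6) and 5.40 ± 1.497 in tumour_swim (n = 6). All 6 tumour ratios, 3.64 to 4.74, lay below all 5 control ratios, 6.24 to 9.16, an arrangement found in 1.6% of genes when each was set against Trdn. Control 1 and control 4 had the highest ratios of Casq2 to Trdn, 8.93 and 9.16, and tumour_swim 1 the lowest, 3.27. The ratio of Casq2 to Ryr2 overlapped, at 4.26 to 29.0 in control and 3.40 to 4.42 in tumour.

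Junctophilin 2, encoded by Jph2 (ENSMUSG00000017817, chromosome 2, 163336242 to 163397993, minus strand), ties the store to the surface membrane. It was read at 104, 179, 139, 73.5 and 192 FPKM in the control libraries, at 61.2, 70.1, 69.3, 95.3, 108 and 109 in tumour and at 33.3, 142, 106, 116, 139.6 and 115 in tumour_swim. The lowest controls were control 4 and control 1, which lie within the tumour range, and the other 3 controls were above all tumour libraries. The log2 fold change was -0.63 ± 0.33 in all libraries (limma adjusted p = 0.218) and -1.01 ± 0.19 without the 3 libraries (adjusted p = 0.00337), where the means were 170 ± 27.7 FPKM in control (SD, n = 3) and 85.5 ± 21.2 in tumour (n = 6). Removing the trend with exon length from every library gave -0.78 ± 0.22 (adjusted p = 0.0222), and scaling by median of ratios gave -0.83 (adjusted p = 0.0108).

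CaM kinase II delta, encoded by Camk2d (ENSMUSG00000053819, chromosome 3, 126596302 to 126846326, plus strand), is the main heart form of the kinase. Its levels were 5.97, 9.53, 10.3, 4.81 and 8.64 FPKM in control, 5.22, 5.71, 6.27, 7.13, 7.06 and 6.47 in tumour and 1.47, 7.72, 6.13, 7.10, 8.15 and 7.49 in tumour_swim. Control 4 and control 1 were the lowest controls, and the other 3 were above every tumour and every tumour_swim library. The log2 fold change of tumour against control was -0.24 ± 0.28 (limma adjusted p = 0.574), -0.52 ± 0.11 without the 3 libraries (adjusted p = 0.00636) and -0.69 ± 0.12 with the length trend removed (adjusted p = 0.000866). Where the length trend was removed, the test called 3 of the 9 genes lower, against 8.52% of all genes. That removal takes Camk2d at its merged exon length of 22493 bases. In control 1 and control 4 Camk2d was at 0.630 and 0.508 times the other controls, above Cacna1c (21191 bases) at 0.400 and 0.189. In tumour_swim 1 they were at 0.201 and 0.142 times the rest. Whether the removal overcorrects Camk2d was not tested.

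**Figure D3:**
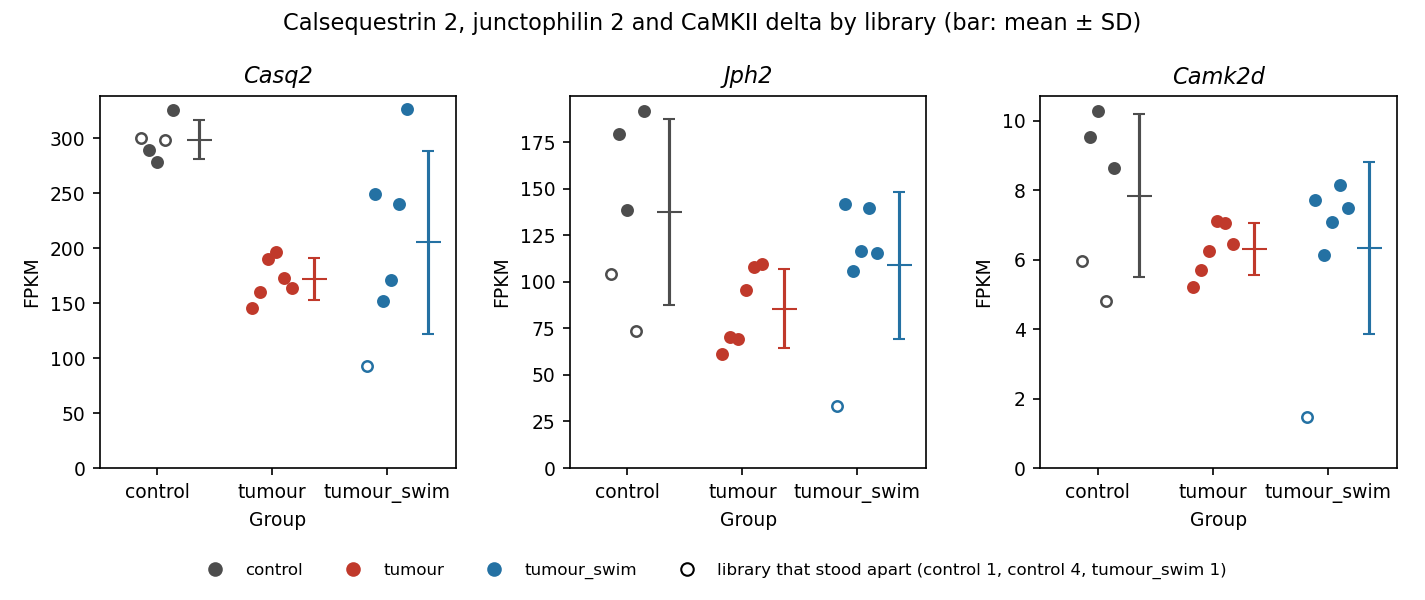
FPKM of Casq2, Jph2 and Camk2d by library and group (points; open circles for control 1, control 4 and tumour_swim 1), with the mean ± SD of all libraries beside each group. For Jph2 the open circles in control fall among the tumour values, and for Camk2d control 1 does and control 4, at 4.81 FPKM, lies below them; the 3 filled controls of both genes lie above all tumour values, as all 5 controls do for Casq2.

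Ryanodine receptor 2, encoded by Ryr2 (ENSMUSG00000021313, chromosome 13, 11553102 to 12106945, minus strand), is the release channel of the store. It was read at 18.8, 68.0, 55.5, 10.3 and 21.6 FPKM in control, at 41.1, 36.3, 54.0, 54.2, 51.0 and 47.9 in tumour and at 10.5, 58.6, 56.8, 58.5, 47.9 and 43.0 in tumour_swim. The controls spread around the tumour libraries on both sides. Tumour against control gave a log2 fold change of 0.74 ± 0.44 (limma adjusted p = 0.276), and 0.11 without the 3 libraries (adjusted p = 0.821).

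Of the pump and its inhibitors, SERCA2, encoded by Atp2a2 (ENSMUSG00000029467, chromosome 5, 122453513 to 122502225, minus strand), was the highest of the 10 genes in every library but tumour_swim 1, where Pln was. Its levels were 1099, 2126, 2023, 707 and 1549.5 FPKM in control, 1385, 1598, 1632, 1758, 1816 and 1999 in tumour and 480.0, 2042, 1631, 1906, 2030.4 and 1725 in tumour_swim. Control 4 and tumour_swim 1 were far below the rest of their groups, and tumour lay within the control range. On the log2 scale the difference was 0.28 ± 0.34 (limma adjusted p = 0.587; 95% interval -0.43 to 0.99), and -0.16 without the 3 libraries (adjusted p = 0.510), so that its sign depends on them.

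Phospholamban, encoded by Pln (ENSMUSG00000038583, chromosome 10, 53337667 to 53345987, plus strand), was read at 537, 585, 671, 486 and 744 FPKM in control, at 701, 792, 865, 717, 713 and 621 in tumour and at 506, 614, 637, 619, 617 and 777 in tumour_swim. Of the tumour libraries 2 were above all controls, and the groups otherwise overlapped. Its log2 fold change was 0.29 ± 0.15 (limma adjusted p = 0.202), with a 95% interval of -0.02 to 0.60, and 0.14 without the 3 libraries (interval -0.14 to 0.42, adjusted p = 0.521). A predicted gene on the other strand, Gm47644, covers 59.59% of the Pln exons. The labels used here give no strand setting for the counting, so the reads of the pair cannot be told apart, and Gm47644 itself had a mean of 6.21 FPKM.

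Sarcolipin, encoded by Sln (ENSMUSG00000042045, chromosome 9, 53850164 to 53854560, plus strand), is in the mouse mainly an atrial and skeletal muscle protein. It was listed at 0 in 10 of the 17 libraries and reached at most 0.192 FPKM, or 5 reads, in the others. No difference could be detected at this depth.

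The ratio of Pln to Atp2a2 sets inhibitor against pump within a library, so scaling between libraries cannot move it. A trend with exon length can, since Pln has 2759 bases of exon and Atp2a2 6081. The highest ratios of control were those of control 4 (0.687) and control 1 (0.489), and that of tumour_swim was in tumour_swim 1. It was 0.453 ± 0.161 in control (SD, n = 5), 0.440 ± 0.0842 in tumour (n = 6) and 0.471 ± 0.291 in tumour_swim (n = 6). The mean log2 ratio of tumour was 0.01 above that of control (exact two-sided permutation test, p = 0.965, adjusted p over the 3 comparisons = 0.965). It was 0.04 lower in tumour_swim than in tumour (difference -0.04, exact permutation p = 0.911) and 0.03 lower than in control (difference -0.03, p = 0.922), each with an adjusted p of 0.965. The ratio in tumour_swim 1 was 1.05, and its group without that library was 0.354 ± 0.0650 (n = 5), beside 0.362 ± 0.106 for the 3 remaining controls (SD, n = 3). Without the 3 libraries, tumour was 0.30 above control (exact permutation p = 0.262) and tumour_swim was at -0.31 relative to tumour (p = 0.0996).

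Of the surface membrane proteins, the pore subunit of the L-type channel is encoded by Cacna1c (ENSMUSG00000051331, chromosome 6, 118587240 to 119196418, minus strand). Its levels were 5.57, 18.2, 14.9, 2.63 and 8.66 FPKM in control, 12.2, 13.8, 17.6, 19.9, 19.0 and 17.2 in tumour and 2.64, 21.1, 21.5, 22.7, 15.5 and 12.6 in tumour_swim. Control 2 and control 3 were within the tumour range and the other 3 controls below it. Its log2 fold change was 0.90 ± 0.45 (limma adjusted p = 0.198), and 0.28 without the 3 libraries (adjusted p = 0.440). Leaving out tumour_swim 1 alone, which is in neither group but in the shared fit, gave a call at the same 0.90 (limma adjusted p = 0.0482), and for Jph2 at -0.63 (adjusted p = 0.0471). In that fit 2642 of all genes were called higher and 1024 lower, in place of 704 and 457 with all libraries.

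The sodium-calcium exchanger is encoded by Slc8a1 (ENSMUSG00000054640, chromosome 17, 81373105 to 81738377, minus strand). It was read at 12.2, 26.7, 23.7, 7.33 and 18.1 FPKM in control, at 15.0, 14.8, 22.6, 21.4, 18.3 and 16.9 in tumour and at 3.79, 28.4, 15.7, 18.3, 27.0 and 34.5 in tumour_swim. Tumour lay within the control range, and tumour_swim held both the lowest and the highest library. The log2 fold change of tumour against control was 0.15 ± 0.41 (limma adjusted p = 0.820), and -0.31 without the 3 libraries (adjusted p = 0.3599).

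**Figure D4:**
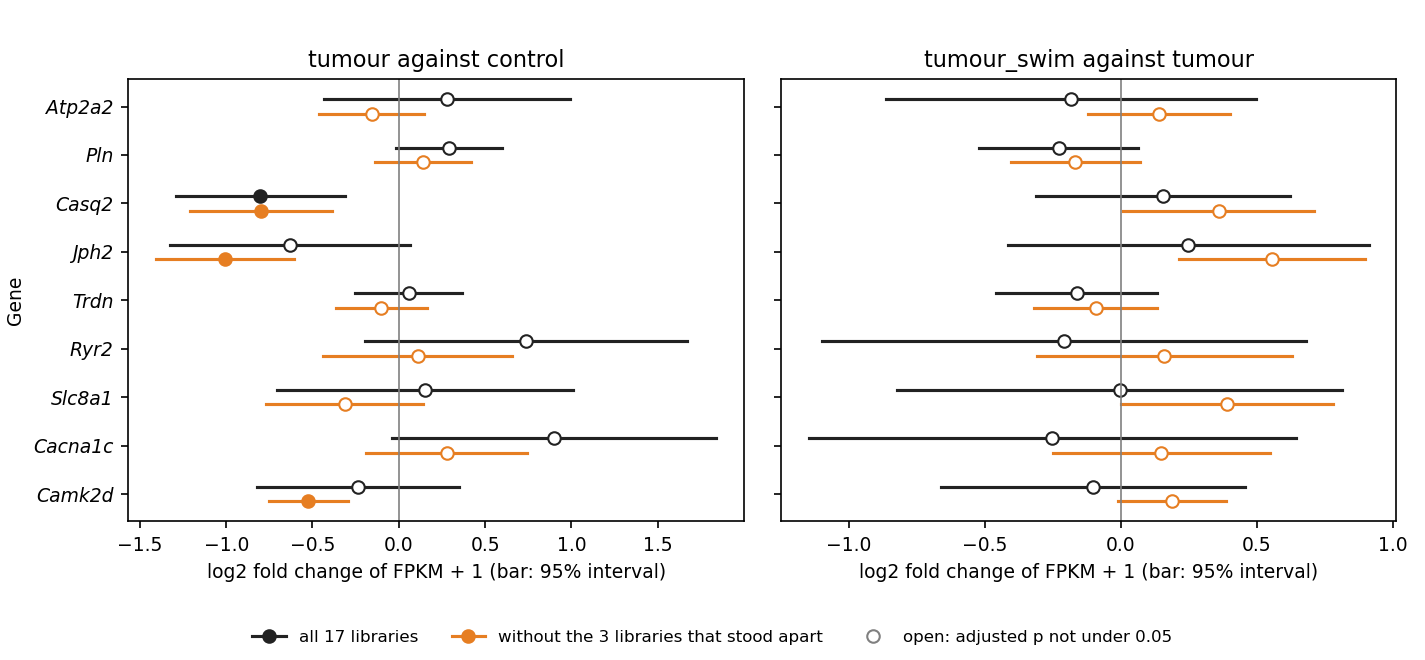
Log2 fold change of FPKM + 1 with its 95% interval (horizontal axis) for 9 genes in tumour against control and in tumour_swim against tumour. Each is given for all 17 libraries and without the 3 that stood apart. Casq2 is below 0 in tumour against control in both, at -0.80; Jph2 and Camk2d move to -1.01 and -0.52 with narrower intervals when the 3 libraries are left out.

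The second question was whether swimming altered these genes in tumour-bearing mice. None of the 9 genes passed between tumour_swim and tumour by limma, none had an unadjusted p under 0.05, and over all genes 0% passed, with 554 at an unadjusted p under 0.05. Casq2 had means of 205 ± 83.3 FPKM in tumour_swim and 172 ± 19.2 in tumour (SD, n = 6 each). Its log2 fold change was 0.15, with a 95% interval of -0.31 to 0.62. For Jph2, at 109 ± 39.6 and 85.5 ± 21.2 FPKM, it was 0.25 (interval -0.42 to 0.91), and for Pln, at 628 ± 86.8 and 735 ± 83.7 FPKM, it was -0.23 (interval -0.52 to 0.06). The other 6 genes lay between -0.25 and -0.01, and the adjusted p of the 9 was 0.957 to 0.999.

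Without the 3 libraries, Jph2 was at 124 ± 16.0 FPKM in tumour_swim (SD, n = 5), and its log2 fold change against tumour was 0.56 ± 0.16 (limma adjusted p = 0.312; interval 0.21 to 0.90). Casq2 was at 0.36 ± 0.17 there (adjusted p = 0.497; interval 0.0088 to 0.71). Neither passed, and 0.00725% of genes did. The ratio of Jph2 to Atp2a2, picked after the values were seen and so not tested, was 0.0425 to 0.0593 in tumour and 0.0610 to 0.0695 in tumour_swim. All 6 tumour_swim libraries were above all 6 tumour libraries, tumour_swim 1 among them, an arrangement found in 0.27% of genes when each was set against Atp2a2. Set against Ryr2 instead, Jph2 overlapped between tumour (1.28 to 2.28) and tumour_swim (1.87 to 3.16). In control the ratio of Jph2 to Atp2a2 was 0.0686 to 0.124, above all tumour libraries, an arrangement found in 2.17% of genes.

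**Figure D5:**
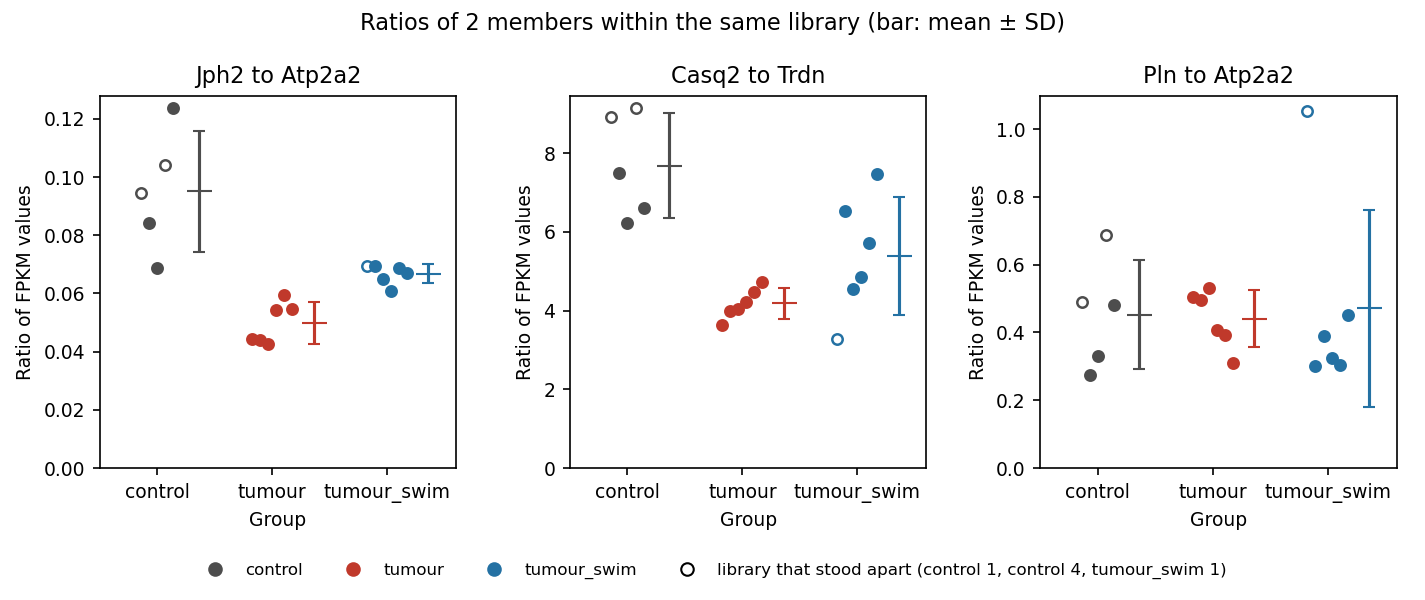
Ratios of FPKM values within a library for Jph2 to Atp2a2, Casq2 to Trdn and Pln to Atp2a2, by group, with the mean ± SD of all libraries beside each group; open circles are the 3 libraries that stood apart. Jph2 to Atp2a2 is lowest in tumour (0.0425 to 0.0593), and Pln to Atp2a2 overlaps between all groups apart from tumour_swim 1 at 1.05.

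The third comparison set tumour_swim against control. It shares its libraries with the other 2 comparisons, so it is no separate evidence for them. None of the 9 genes passed by limma, and 0.905% of all genes did. Casq2 had the smallest p of the 9, at a log2 fold change of -0.65 ± 0.23 (adjusted p = 0.246). It was -0.44 ± 0.20 without the 3 libraries (limma adjusted p = 0.257). Of the 6 tumour_swim libraries 5 were below every control, and tumour_swim 6, at 327 FPKM, was above every control. The other 8 genes had adjusted p of 0.580 to 0.915, with log2 fold changes of -0.38 for Jph2 and -0.34 for Camk2d and up to 0.65 for Cacna1c. With the length trend removed, Camk2d passed at -0.64 ± 0.12 (adjusted p = 0.00438), where 1.62% of genes were called lower. Without the 3 libraries alone it did not pass, at -0.34 (limma adjusted p = 0.125). Leaving out tumour_swim 1 alone gave a call for Cacna1c at 1.05 (limma adjusted p = 0.0454). In that fit 1842 of all genes were called higher and 366 lower, in place of 76 and 48 with all libraries.

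A list of 73 other genes of calcium handling, of which 72 were in the table and 64 were tested, was read beside these. In tumour against control 3 were called higher and 2 lower by limma, which is 7.81% of those tested and near the 8.47% of all genes, and the list's median log2 fold change was 0.06, beside 0.14 over all genes. Rrad, a small GTP-binding protein that restrains the L-type channel, rose from 26.6 ± 7.66 FPKM (SD, n = 5) to 70.6 ± 18.4 (n = 6), a log2 fold change of 1.39 ± 0.23 (adjusted p = 0.00188). Tmem38b, which encodes TRIC-B, a potassium channel of the store's membrane, rose from 10.1 ± 1.196 to 19.0 ± 2.25 FPKM, by 0.85 ± 0.15 (adjusted p = 0.00324). In both genes the lowest tumour library, at 41.0 and 16.0 FPKM, was above the highest control, at 33.1 and 11.6 FPKM, as in 7.59% of genes tested.

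Casq1, the calsequestrin typical of skeletal muscle, fell with Casq2, from 14.5 ± 7.62 to 3.14 ± 0.813 FPKM, at a log2 fold change of -1.81 ± 0.35 (limma adjusted p = 0.00486). Its controls were 11.1, 13.8, 12.5, 7.54 and 27.4 FPKM and its tumour libraries 2.26 to 4.16, without overlap. Ppp1r1a, an inhibitor of protein phosphatase 1, fell from 1.17 ± 0.347 to 0.485 ± 0.190 FPKM (-0.54 ± 0.14, adjusted p = 0.0265), and Ppp1r3a, a glycogen-targeting subunit of that phosphatase, rose from 24.4 ± 14.1 to 51.0 ± 7.24 FPKM (1.22 ± 0.33, adjusted p = 0.0315). Ppp1r1a lost its call on leaving out control 1, control 4, tumour 3, tumour 4 or tumour 6 (adjusted p 0.0551 to 0.0816). Ppp1r3a lost its call without control 1, 4 or 5 or tumour 1, 3, 4 or 6 (adjusted p 0.0529 to 0.0924). The calls of Rrad, Tmem38b and Casq1 held without each of the 17 libraries in turn.

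Without the 3 libraries that stood apart, 3 genes of the list were called higher and 5 lower of 63 tested, where 12.5% of all genes were called. With the length trend removed 4 were called higher and 12 lower of 64, against 8.99% and 8.52% of all genes. Without the 3 libraries, the further calls were Letm1, a mitochondrial ion exchanger (log2 fold change -0.49), Dysf, which encodes the membrane repair protein dysferlin (-0.64), and Camk2b, another CaM kinase II gene (-0.48). Rrad, Tmem38b, Casq1, Ppp1r3a and Ppp1r1a kept their calls there, the last 2 at 0.71 (adjusted p = 0.0312) and -0.40 (adjusted p = 0.0451). Strit1, whose peptide DWORF relieves the pump of phospholamban in mice, shows how far single libraries reach: it was at 244 and 415 FPKM in control 1 and control 4, and at 18.4, 34.2 and 50.9 FPKM in the other controls. Its tumour libraries lay at 16.8 to 33.2 FPKM, and it did not pass (log2 fold change -1.65, limma adjusted p = 0.0856). It was picked after its values were seen.

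In tumour_swim against tumour no gene of the list passed by limma and 1 had an unadjusted p under 0.05. The smallest p were those of Rrad, at -0.60 ± 0.22, Tmem38b, at -0.29 ± 0.15, and Tmem38a, which encodes the related channel TRIC-A, at 0.21 ± 0.11, each with an adjusted p of 0.957. Rrad in tumour_swim was 45.5 ± 10.04 FPKM, and Tmem38a was 195 ± 12.8 in tumour and 226 ± 15.6 in tumour_swim. In tumour_swim against control no gene passed and 11 had an unadjusted p under 0.05. The smallest p there were those of Tmem38b (0.56, adjusted p = 0.104), Casq1 (-1.21, adjusted p = 0.119) and Rrad (0.79, adjusted p = 0.135). Tmem38b passed without the 3 libraries, at 0.60 (adjusted p = 0.0180), where 1.9% of genes were called higher. With the length trend removed, Tmem38b (0.52), Rrad (0.89) and Ppp1r3a (0.86) were called higher and Camk2b (-0.58) and Letm1 (-0.50) lower, against 2.11% and 1.62% of all genes.

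Markers of the tissue's cells moved as well in tumour against control. Over all genes limma called 5.14% higher and 3.33% lower there. Of the 12 heart muscle markers it called 4 lower, namely Mb (log2 fold change -0.77), Ckm (-0.53), Myl3 (-0.76) and Tnnc1 (-0.88). The log2 fold change was above 0 in 5 of the 12 and below 0 in 7, and mean Myh6 went from 2112 to 3198 FPKM. The summed level of the 12 was 16732 to 29331 FPKM in control, 15387 to 18383 in tumour and 16229 to 19944 in tumour_swim. Without the 3 libraries 1 of the 12 was called lower, where 5.42% of all genes were. Median-of-ratios scaling called 0 of the 12 and quantile normalization 1 lower. Removing the length trend called 5 lower, where 8.52% of all genes were. Of 8 fibroblast markers 5 were called higher, with sums of 289 to 422, 438 to 961 and 261 to 695 FPKM, and of 8 tested leukocyte markers 5, with sums of 153 to 328, 250 to 494 and 141 to 361 FPKM. None of 8 endothelial markers was called, 1 of 7 smooth muscle markers (Acta2) was lower and 1 of 4 atrial markers (Dkk3) higher. The part of these shifts in the levels of Casq2, Jph2 and Camk2d was not tested.

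Genes whose profile over the 17 libraries was most like each calcium gene were found by the root mean square difference of mean-centred log2(FPKM + 1) values among 6379 genes. For Casq2 they were Tmx2 (difference 0.137) and Mtif2 (0.186), beside a spread of 0.494 for Casq2 itself. For Jph2 they were Map7d1 (0.119) and Smtn (0.141), beside 0.596, and for Camk2d Klhl23 (0.1004) and Mapre2 (0.107), beside 0.469. Those of Ryr2 were Huwe1 (0.110) and Macf1 (0.130), of Cacna1c Abcc9 (0.137) and Sptb (0.141), and of Atp2a2 Fam120a (0.0975) and D5Ertd579e (0.101), beside spreads of 0.798, 0.830 and 0.564. The nearest to Pln was Chmp1b (0.0871), those of Trdn were Ebag9 (0.110) and Dynlt3 (0.118), and those of Slc8a1 were Sorbs2 (0.219) and Prkar2a (0.226), beside 0.221, 0.206 and 0.681. Pln and Trdn vary little, so a small difference says less for them than for genes with a wide spread. Sln, near 0 throughout, was nearest to Gps1 (0.0952) and Xpnpep1 (0.0982), beside a spread of 0.0924. Its likeness is thus no closer than that of a flat profile. The profiles share libraries, and the spread of the long genes includes that of the 3 libraries that stood apart.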

How the data were processed

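RNA of 17 mouse heart samples was sequenced. The labels' protocols name TRIzol for extraction and a NEBNext Ultra RNA kit for the libraries. Per the submitters' processing notes, bcl2fastq, FastQC, fastp and the build mm10 were used; the aligner, counter, annotation and strand setting are not stated there. The authors deposited 1 table with no named unit, taken here as FPKM: multiplied by GENCODE M21 exon lengths (found for 98.7% of 28640 IDs), its columns sum to 99.04% to 99.73% of what FPKM would give. Of values under 20 reads, 98.71% to 99.04% lie within 0.1 of a whole read, and that step gave the depth. Gene positions are those of GENCODE M21, matched by ID, since the table's own differ from GRCm38.

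Tests across genes used limma-trend (limma 3.58.1, R 4.3.3; two-sided) after log2(FPKM + 1). Genes entered where any group's mean reached 0.5 FPKM. The fit held all 17 libraries with group as its factor and 14 residual degrees of freedom, and Benjamini-Hochberg adjustment ran over all genes at 0.05. Fold changes on this scale understate those of low genes. Ratios were compared by exact two-sided permutation tests (scipy 1.17.1, Python 3.11.15). The fit was tested on simulated data. The closest libraries of a group differed by a chi-square of 11.5 per degree of freedom, so none was taken for a repeat. All 10 genes are described; of the 73 further genes, those past the threshold are named, up to 10 per comparison, or the 3 with the smallest p where none passed. The alternatives are scaling, length trend, pseudocount, filter, weights, block and libraries left out. The 10 genes, the lists and the 3 libraries left out were chosen with earlier results of these data known. For each of the 10 genes the 2 most alike profiles are named, of which 1 is not reported here.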

Additional observations from a re-analysis of the deposited data

Results flagged for a closer look

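In 48 groups of 5 or 6 values, 7 single libraries lay far from the others of their group by Dixon's criterion, where chance alone gives about 1 in 20. Of these, 5 concern tumour_swim 1, the library with 46.3% mitochondrial reads. Atp2a2 was 480 FPKM there and 1631 to 2042 in the other 5 libraries of the group. Ryr2 was 10.53 FPKM, against 43.0 to 58.6. Camk2d was 1.47 FPKM, against 6.131 to 8.149, and Jph2 was 33.29 FPKM, against 105.9 to 141.9. The ratio of Pln to Atp2a2 was 1.054 there, against 0.3008 to 0.4507. The others were Ppp1r1a in tumour 1, at 0.8437 FPKM against 0.273 to 0.475, and Rrad in tumour_swim 3, at 65.88 FPKM against 39.26 to 42.71.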

How the results depend on the processing

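The precision of these results is limited by the spread between 5 or 6 libraries a group, and most by control 1, control 4 and tumour_swim 1, rather than by depth, apart from Sln. In tumour against control 1 member was called. Median-of-ratios scaling and array weights (whose estimation stopped before converging) called 2. Quantile normalization and no filter called 0. Removing the length trend, leaving out the 3 libraries, and both together, an alternative chosen after seeing the data, each called 3. In tumour_swim against control none was called, but 1 was with the length trend removed, alone or together with leaving out the 3 libraries. Leaving out single libraries gave 0 to 3 calls in tumour against control and 0 to 1 in tumour_swim against control, and tumour_swim against tumour had 0 throughout. Over all genes, the median log2 fold change in tumour against control was 0.14 as deposited, -0.0033 by median of ratios and 0.0028 after quantile normalization. Calls over all genes, in the same comparison, were 704 higher and 457 lower; across alternatives they ran from 473 (replicate block) to 1510 higher and 342 to 1241 lower, and from 315 (without control 4) to 2642 (without tumour_swim 1) and 209 to 1024 on leaving out single libraries. In tumour_swim against control, 76 and 48 became 36 to 409 and 12 to 251 across alternatives. On leaving out single libraries they became 34 to 1842 and 18 to 366, both highest without tumour_swim 1. In tumour_swim against tumour, array weights called 32 and 13.

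The labels used here do not say whether the replicate numbers pair libraries. Of 16 same-numbered pairs 8 correlated above 0.1 (lowest -0.67, highest 0.677), and 3 of 17 libraries were closest to their own number. These correlations cannot settle it, since the deviations they compare also hold the trend with exon length. With the replicate block, 1 member was called in tumour against control and 0 in the other comparisons. The Sln to Atp2a2 ratios were not run because Sln was at 0 in 10 libraries, so ratio p-values were adjusted over 3 tests.

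The sign changes below concern members that did not pass, and the cause was not tested. In tumour against control, without the 3 libraries, the log2 fold change became -0.16 for Atp2a2, -0.31 for Slc8a1 and -0.10 for Trdn. With the length trend removed it was -0.28 for Slc8a1 and -0.26 for Trdn; with both changes, -0.20 for Atp2a2, -0.010 for Ryr2, -0.42 for Slc8a1 and -0.17 for Trdn. Median-of-ratios scaling gave -0.035 for Slc8a1 and -0.14 for Trdn, and array weights gave -0.069 for Slc8a1. Leaving out single libraries gave -0.11 to 0.33 for Slc8a1, -0.0077 to 0.14 for Trdn and -0.15 to 0.18 for the log2 ratio of Pln to Atp2a2.

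In tumour_swim against tumour, without the 3 libraries, Atp2a2 became 0.14, Cacna1c 0.15, Camk2d 0.19, Ryr2 0.16 and Slc8a1 0.39. Array weights gave 0.15, 0.16, 0.17, 0.16 and 0.32 for the same genes. With the length trend removed, Camk2d was 0.057 and Slc8a1 0.15; with both changes, Atp2a2 was 0.090, Cacna1c 0.093, Camk2d 0.13, Ryr2 0.10 and Slc8a1 0.34. Slc8a1 was 0.083 after quantile normalization and 0.11 by median of ratios. Leaving out single libraries gave -0.28 to 0.14 for Atp2a2, -0.39 to 0.15 for Cacna1c, -0.19 to 0.19 for Camk2d, -0.0014 to 0.36 for Casq2, -0.31 to 0.16 for Ryr2, -0.19 to 0.39 for Slc8a1 and -0.31 to 0.053 for the ratio of Pln to Atp2a2.

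In tumour_swim against control, without the 3 libraries, Atp2a2 was -0.017 and Pln -0.029. With the length trend removed, Atp2a2 was -0.019, Slc8a1 -0.13 and the ratio of Pln to Atp2a2 0.098; with both changes, Atp2a2 was -0.11, Pln -0.062 and Slc8a1 -0.082. Median-of-ratios scaling gave -0.0042 for Pln. Leaving out single libraries gave -0.15 to 0.42 for Atp2a2, -0.013 to 0.14 for Pln, -0.11 to 0.54 for Slc8a1 and -0.30 to 0.14 for the ratio of Pln to Atp2a2.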
